A study of Mus musculus with 6 samples.

Results

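The genes of the nucleosome remodelling and deacetylase (NuRD) complex were followed in RNA of the modiolus, the central bone of the cochlea in which the spiral ganglion neurons (SGNs) lie. The set was chosen by the difference of Gatad2b between degenerated and control libraries in these data, and the other members, Gatad2a, Mbd2, Mbd3, Mta1, Mta2, Chd4, Hdac1, Hdac2 and Rbbp4, were selected as its partners in the complex. All 10 genes had at least 1 listed transcript, among 33676 genes with one, and all 10 were among the 14118 genes that passed the filter on low counts. Because Gatad2b chose the set, its difference is given below as a description, and nothing is read from it where Gatad2b or a transcript of it is counted among the features called.

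Libraries of modiolus RNA came from male C57BL/6 mice, 3 labelled control and 3 labelled degenerated. The study's methods give an age of 8 weeks, a subcutaneous dose of 1 g/kg kanamycin sulfate and an intraperitoneal dose of 0.4 g/kg furosemide for the degenerated group, whose libraries the study places on day 30 after the drugs, and saline for the control group, whose day is not given. The drugs destroy hair cells and the SGNs degenerate afterwards. No transgene or mutation is named for either group, and nothing in the labels says whether a library is 1 animal or a pool, so that p-values measure only the spread between these libraries.

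NuRD joins an ATP-driven motor that slides nucleosomes to deacetylases that remove acetyl groups from histone tails, and it is known mainly for closing enhancers and promoters. In the deacetylase part HDAC1 and HDAC2 are held by an MTA scaffold with the histone chaperones RBBP4 and RBBP7, and in the remodelling part the CHD motor is joined through GATAD2A or GATAD2B, which bind MBD2 or MBD3. MBD2 binds methylated DNA, MBD3 does so poorly, and a complex holds one of them and not both, as is also known for the GATAD2 pair. Loss of a copy of GATAD2B in humans causes a syndrome of intellectual disability.

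The products of the paralogues Gatad2b and Gatad2a take the same place in the complex. Gatad2b differed most between the groups within the set, so sequences of both genes are shown. Each protein has a GATA-type zinc finger, in which 4 cysteines hold a zinc ion. The coding stretches below run from the first to the last of these cysteines in the listed coding transcript with the most counts. They are written 5′ to 3′, with cysteine codons in capitals. The stretch of Gatad2b codes for residues 421 to 445 of 594, and that of Gatad2a for residues 416 to 439 of 629 and holds 5 cysteine codons.
Gatad2b-205: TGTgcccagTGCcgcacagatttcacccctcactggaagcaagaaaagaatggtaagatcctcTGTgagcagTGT
Gatad2a-206: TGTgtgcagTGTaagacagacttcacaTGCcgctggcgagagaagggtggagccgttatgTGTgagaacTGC
The fingers matched at 14 of 25 aligned residues, and the whole proteins at 258 of 684 aligned columns (37.7%). No stretch of 50 bases of Gatad2b-205 occurred in a transcript of Gatad2a, so that reads of that length could be told apart between the pair.

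Promoters of the pair are shown because one gene differed between the groups while the other did not pass the test. They run from 250 bases before to 50 bases after a RefSeq start on build GRCm38.p6, with each CCAAT box (CCAAT, or ATTGG on the other strand) in capitals. The Gatad2b promoter lies on the plus strand at chr3:90292931-90293230, at the start of the coding transcript that was counted.
Gatad2b: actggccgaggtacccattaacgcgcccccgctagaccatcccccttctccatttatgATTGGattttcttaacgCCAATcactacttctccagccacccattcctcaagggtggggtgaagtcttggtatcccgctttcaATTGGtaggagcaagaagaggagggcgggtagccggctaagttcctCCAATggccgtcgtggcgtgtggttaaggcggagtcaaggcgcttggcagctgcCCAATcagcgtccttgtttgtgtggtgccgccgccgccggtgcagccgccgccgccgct
The Gatad2a promoter lies on the minus strand at chr8:69996335-69996634.
Gatad2a: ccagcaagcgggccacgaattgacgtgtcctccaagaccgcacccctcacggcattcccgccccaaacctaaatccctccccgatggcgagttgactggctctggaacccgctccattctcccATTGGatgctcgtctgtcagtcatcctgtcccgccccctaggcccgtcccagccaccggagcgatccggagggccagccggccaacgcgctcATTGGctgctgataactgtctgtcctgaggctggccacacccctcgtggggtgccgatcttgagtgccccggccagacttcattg
The Gatad2b window held 5 CCAAT boxes and 22 CpG dinucleotides at a GC content of 59.3%, and the Gatad2a window 2 CCAAT boxes and 21 CpG at 64%. Among 32851 RefSeq promoters of this length, 37.4% held at least 1 CCAAT box and 0.271% held 5 or more, with a median of 7 CpG and a GC content of 52.7%. The promoters of Mbd3, Mta1, Mta2, Chd4, Hdac2 and Rbbp4 held 0 to 3 of these boxes. Those of Mbd2 and Hdac1 were not read. A second start of Gatad2b, at chr3:90293836-90294135, held 1, and a second start of Gatad2a, at chr8:69974334-69974633, held 0. Neither the cAMP response element TGACGTCA (on either strand, in 1.79% of promoters) nor the AP-1 site TGACTCA (5.2%) was in the Gatad2b windows, and the second Gatad2a window held 1 AP-1 site. The GC box GGGCGG (35.7% of promoters) and the TATA box TATAAA (13.6%) were read too. Each Gatad2b window held 1 GC box, the first Gatad2a window 2 and the second 4 (5.49% of promoters held 4 or more). No window of the pair held a TATA box. Several motifs were read, and a rare count of any of them was not tested. No binding was measured in these libraries, and these matches are a description of the letters.

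The libraries held 12480876 to 15549319 counts, and Pearson's r between replicates was 0.913 to 0.948 for log2(CPM + 1), where CPM is the count scaled to a common library total after TMM normalization. The labels name the cell type as spiral ganglion neuron, and all 10 SGN markers on a fixed list were present. So were 5 of 6 Schwann cell, 6 of 6 hair cell and 4 of 5 red blood cell markers. The libraries therefore hold RNA of other cells besides SGNs. SGN markers summed to 11790 to 15159 CPM in control and 6698 to 10169 in degenerated libraries, with 2 of 10 called lower. Hair cell markers summed to 446 to 621 and 154 to 387 CPM, with 2 of 5 tested called lower. Bone markers summed to 397 to 689 and 160 to 315 CPM, with 1 of 2 tested called lower. At the criteria given below, 0.715% of all genes tested were called lower. Schwann cell markers (5413 to 9591 and 4778 to 7551 CPM) overlapped between the groups. So did the 3 of 6 macrophage markers with a listed transcript (9.76 to 19.4 and 1.5 to 10.8 CPM). In such tissue fewer cells of a type and less RNA per cell cannot be told apart. Red blood cell (3459 to 40556 CPM), dividing cell (19 to 596 CPM) and B cell markers (9.53 to 289 CPM) overlapped between the groups and were highest in control replicate 2. Skeletal muscle markers also overlapped, at 290 CPM in control replicate 3 and 1.13 to 5.02 CPM in the other libraries. The part of these markers in the values below was not tested.

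Gatad2b, the GATA zinc finger subunit that links the remodelling and deacetylase parts, was the one gene of the set whose groups stood apart. Its level was 34.8, 36.6 and 30.8 CPM in control replicates 1, 2 and 3 and 115, 118 and 124 CPM in the degenerated ones. These rest on 525, 517 and 482 counts against 1684, 1670 and 1573. Every degenerated library was more than every control library by a gap far wider than the range within either group, and the coefficients of variation were 8.75% and 3.89%. The means of 34 ± 2.98 and 119 ± 4.63 CPM (SD, n = 3) have a ratio of 3.5. The fitted log2 fold change was 1.81 (SE 0.13, 95% interval 1.49 to 2.12). As this difference chose the set, the gap and the interval are a description and not a test.

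**Figure D1:**
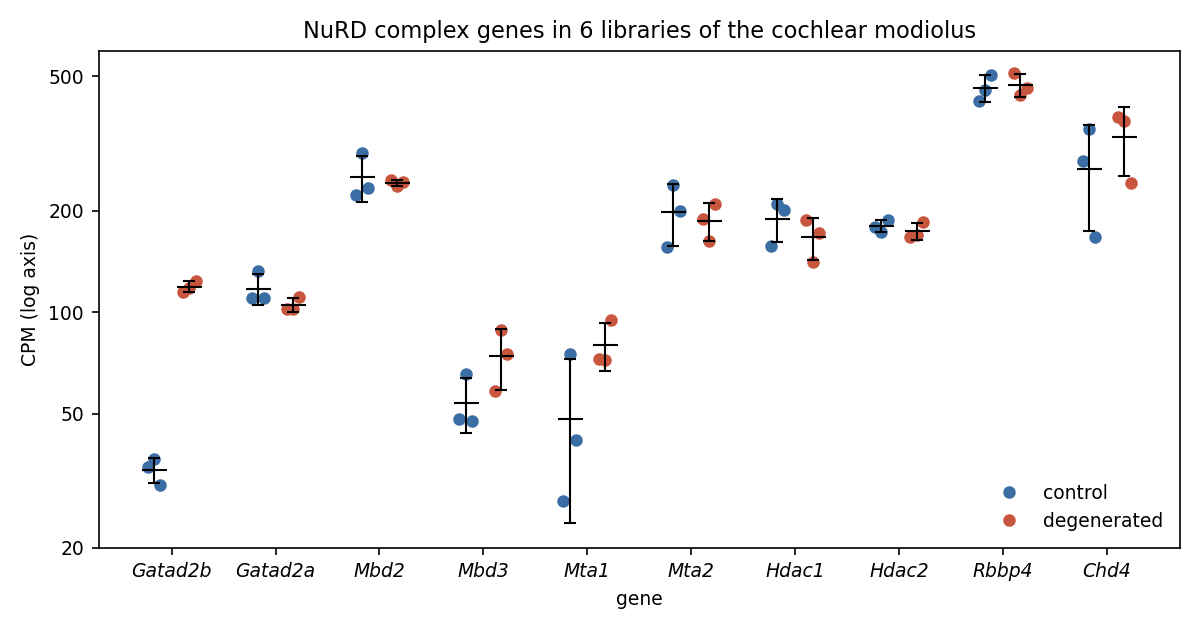
CPM (log axis) of the 10 NuRD genes in each of 3 control (blue) and 3 degenerated (red) libraries, with points for libraries, a black dash for the mean and bars for the SD. Gatad2b lies at 30.8 to 36.6 CPM in control and 115 to 124 CPM in degenerated libraries, while the points of the other 9 genes overlap between groups.

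Gatad2a, which fills the same place in the complex, lay at 110, 132 and 110 CPM in control and 102, 102 and 111 CPM in degenerated libraries. The groups overlapped, and edgeR's quasi-likelihood test gave a log2 fold change of -0.17 (SE 0.12, 95% interval -0.46 to 0.13, Benjamini-Hochberg adjusted p = 0.711). On counts per kilobase, which allow genes to be compared, Gatad2b made up 15.2, 14.9 and 15.4% of the pair in control and 38.7, 40.3 and 37% in degenerated libraries. The mean share was 15.2 ± 0.223% and 38.7 ± 1.64% (SD, n = 3), and Gatad2a had the higher value in each of the 6 libraries. These shares rest on 3 of 8 annotated transcripts of Gatad2b and 4 of 6 of Gatad2a, the ones listed.

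Most of the Gatad2b counts fell on a single transcript. The annotation (GENCODE M21, build GRCm38) places the gene on the plus strand of chromosome 3, at chr3:90293178-90363407, with 8 transcripts, of which 3 are listed in the deposited table. Gatad2b-205, the coding transcript of 11 exons and 7438 bases with a 3′ UTR of 5408 bases, had 490, 426 and 401 counts in control and 1600, 1501 and 1543 in degenerated libraries. In CPM normalized over transcripts this was 33.5, 30.8 and 26 against 109, 104 and 122, with a log2 fold change of 1.89 (SE 0.17). Its range in degenerated libraries lay wholly above that in controls, as for the gene.

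Gatad2b-202, a retained-intron transcript, had 30, 89 and 76 counts in control and 82, 159 and 27 in degenerated libraries. In CPM these were 2.05, 6.44 and 4.92 against 5.58, 11 and 2.13, which overlapped, with a log2 fold change of 0.48 (SE 0.73). The third listed transcript, Gatad2b-207, is a single retained-intron exon with 2 to 10 counts a library and was not tested. Gatad2b-205 held 93.3, 82.4 and 83.2% of the counts of the gene in control and 95, 89.9 and 98.1% in degenerated libraries (86.3 ± 6.1% and 94.3 ± 4.15%, SD, n = 3), and these shares overlapped. Of the 5 coding transcripts of Gatad2b, 4 have no row and were not analysed here, among them the short-3′-UTR form Gatad2b-204 (374 bases of 3′ UTR) and Gatad2b-201 and Gatad2b-203, which start inside the gene. The counts of the gene are therefore mainly those assigned to the long-3′-UTR form. Gatad2b-204 and Gatad2b-201 have a coding sequence of the same length, 1782 bases, and how reads common to several forms were assigned is not known. Which form was expressed, and whether the unlisted forms differed between groups, is not known from these counts.

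**Figure D2:**
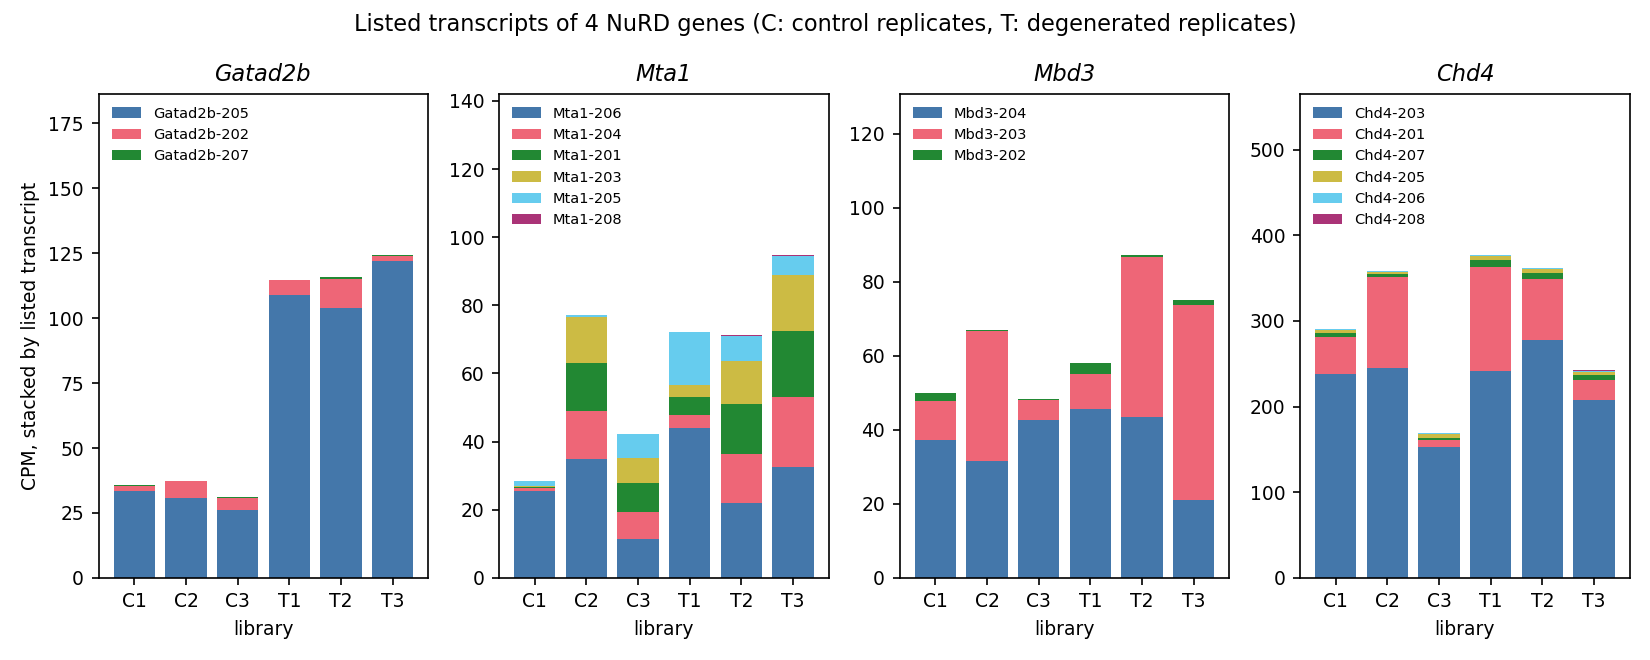
CPM of the listed transcripts, stacked, of Gatad2b, Mta1, Mbd3 and Chd4 in each library (C1 to C3 control, T1 to T3 degenerated), on a linear axis of its own for each gene. Gatad2b-205 fills most of each Gatad2b bar, whereas the makeup of the Mta1, Mbd3 and Chd4 bars differs between libraries of one group.

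The antisense gene 4930537H20Rik overlaps the start of Gatad2b and shares 2.69% of the 50-base stretches of Gatad2b-205. It had 0 to 4 counts in each library, against at least 482 for Gatad2b. The sources used here do not state whether reads were counted by strand, so reads of both strands cannot be told apart there.

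The genes around Gatad2b were read for a difference shared along the chromosome. Of 21 protein-coding genes that start within 250 kb of its start, 18 were tested and 0 were called at the criteria used here, a p below 0.01 before adjustment and a log2 fold change of over 0.2 in size, which 2.01% of all genes tested met as higher and 0.715% as lower. Their log2 fold changes ran from -0.74 to 0.58 with a median of -0.0062. The nearest, Dennd4b, whose product activates Rab proteins, starts 28 kb upstream and had 85.3, 121 and 85.9 CPM in control and 75.3, 81.2 and 68.3 CPM in degenerated libraries (log2 fold change -0.38, SE 0.18, edgeR adjusted p = 0.576).

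**Figure D3:**
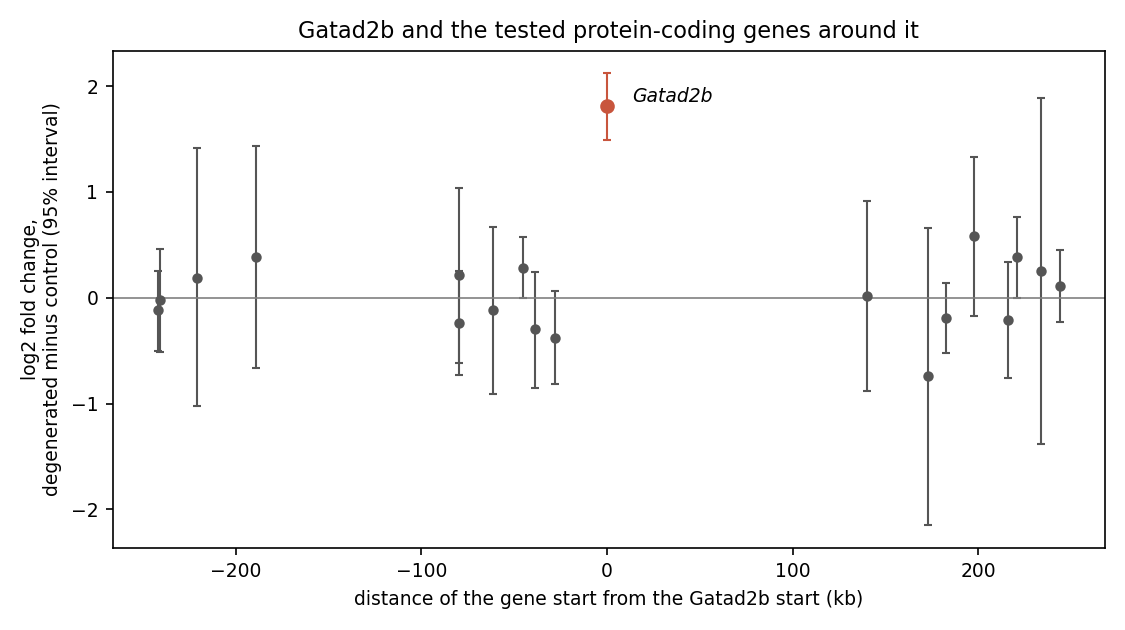
Log2 fold change (degenerated minus control, bars for the 95% interval) against the distance in kb of each gene's start from the Gatad2b start, for Gatad2b (red) and 18 tested protein-coding neighbours (grey). Gatad2b lies at 1.81 and the neighbours between -0.74 and 0.58.

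By these criteria 1 of the 10 NuRD genes was called higher, Gatad2b itself, beside 2.01% of all 14118 genes tested, and 0 were called lower, beside 0.715%. The first count is fixed by the choice of the set. At an adjusted p under 0.05, edgeR called 0 of all genes (1367 at an unadjusted p under 0.05), limma-voom 0 and DESeq2 383, and none of these tools called another of the 9 genes at that threshold. The median log2 fold change was -0.01 over the 10 genes, -0.05 without Gatad2b and -0.0034 over all genes tested. Of the other 9 genes, 0 had groups that did not overlap, against 17.7% of all genes tested.

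Mbd2, the subunit that binds methylated DNA, had 223, 296 and 234 CPM in control and 246, 237 and 243 CPM in degenerated libraries. The degenerated values fell inside the control range, with a log2 fold change of -0.051 (SE 0.13, 95% interval -0.38 to 0.27, edgeR adjusted p = 0.922). Mbd3, its alternative in the complex, had 48.3, 65.4 and 47.6 CPM in control and 58.2, 88.6 and 75 CPM in degenerated libraries. Control replicate 2 lay above degenerated replicate 1, and the log2 fold change of 0.46 (SE 0.22, 95% interval -0.074 to 0.99) did not pass the test (edgeR adjusted p = 0.576). The share of Mbd3 in the pair, on counts per kilobase, was 22.6, 23.8 and 20.5% in control and 24, 34.4 and 31.3% in degenerated libraries, a gap of less than 1 percentage point between the nearest libraries.

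Mta1, a scaffold that recruits the deacetylases, varied most among control libraries. It had 27.6, 75.3 and 41.7 CPM in control and 72.6, 72.2 and 94.7 CPM in degenerated libraries. Control replicate 2 stood within the degenerated range, and the log2 fold change of 0.73 (SE 0.38, 95% interval -0.20 to 1.66) was not called (edgeR adjusted p = 0.602). Without control replicate 2 it was 1.20 and was called at these criteria, with an edgeR adjusted p of 0.478, and without control replicate 1 it was 0.44 and was not called. Dividing cell markers summed to 19, 596 and 274 CPM in control replicates 1, 2 and 3, the same order as Mta1. Red blood cell and B cell markers also had that order. In degenerated replicates 1, 2 and 3 the dividing cell sums were 97.1, 63 and 444 CPM. The part of these markers in the level of Mta1 was not tested.

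Mta2, the scaffold paralogue, had 156, 239 and 200 CPM in control and 189, 162 and 209 CPM in degenerated libraries. The groups overlapped, with a log2 fold change of -0.087 (SE 0.19, 95% interval -0.54 to 0.37, edgeR adjusted p = 0.906). Mta1 made up 20.1, 28.4 and 20% of the pair per kilobase in control and 33.3, 34.9 and 36% in degenerated libraries (22.8 ± 4.81% and 34.7 ± 1.36%, SD, n = 3). These shares did not overlap, but an exact two-sided permutation test of 3 against 3 libraries cannot go below p = 0.1, and the shares rest on the transcripts listed.

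**Figure D4:**
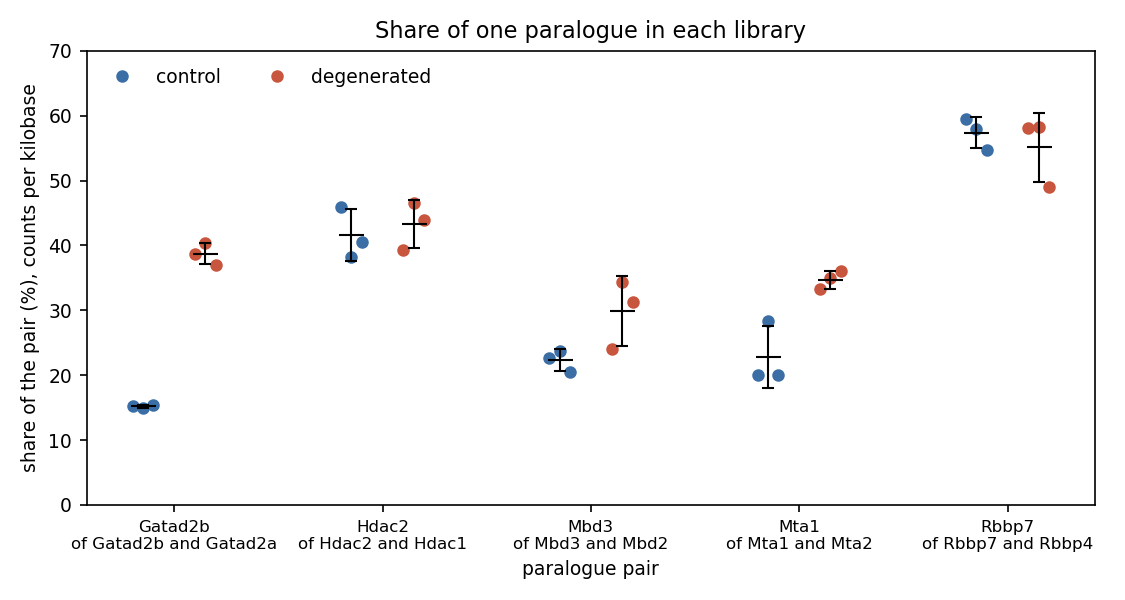
Share (%) of one paralogue in a pair of NuRD subunit genes, on counts per kilobase of listed transcript, in each control (blue) and degenerated (red) library, with a dash for the mean and bars for the SD (n = 3). The Gatad2b share goes from 15.2% to 38.7% on average, and the shares of Hdac2 and Rbbp7 overlap between groups.

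Hdac1 and Hdac2, the deacetylases of the complex, had overlapping levels. Hdac1 had 157, 209 and 201 CPM in control and 187, 141 and 172 CPM in degenerated libraries, with a log2 fold change of -0.19 (SE 0.16, 95% interval -0.59 to 0.22, edgeR adjusted p = 0.769). It was the one gene of the set with all of its transcripts listed, 7 of 7. Of the 50-base stretches of Hdac1-201, 58.7% occur in other genes, mainly the processed pseudogene Gm10093, which had 50 to 68 counts a library against 1997 to 3156 for Hdac1, so reads may be split between them.

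Hdac2 had 179, 173 and 188 CPM in control and 167, 169 and 185 CPM in degenerated libraries, the narrowest spread among controls in the set (a coefficient of variation of 4.01%). Its log2 fold change was -0.05 (SE 0.10, 95% interval -0.28 to 0.18, edgeR adjusted p = 0.893), which places any difference of the means between a ratio of 0.821 and 1.14. The share of Hdac2 in the pair was 41.6 ± 3.94% in control and 43.3 ± 3.69% in degenerated libraries (SD, n = 3), with overlapping libraries.

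Rbbp4, a histone chaperone shared with other complexes, had the most counts of the set. It lay at 422, 456 and 506 CPM in control and 511, 439 and 462 CPM in degenerated libraries. These overlapped, with a log2 fold change of 0.03 (SE 0.12, 95% interval -0.25 to 0.31, edgeR adjusted p = 0.95). Rbbp4-201 shared 33.8% of its 50-base stretches with other genes, among them the lincRNA Gm26722 (17 to 40 counts a library) and Sync (1 to 52 counts), both far below the 5848 to 7925 counts of Rbbp4.

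Chd4, the motor that moves nucleosomes, had 281, 350 and 167 CPM in control and 379, 368 and 242 CPM in degenerated libraries. Its spread was wide in both groups, control replicate 3 and degenerated replicate 3 being the low ones. The log2 fold change of 0.31 (SE 0.31, 95% interval -0.45 to 1.07) did not pass the test (edgeR adjusted p = 0.793). It was 0.049 without control replicate 3 and 0.56 without control replicate 2, and was called in neither case.

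**Figure D5:**
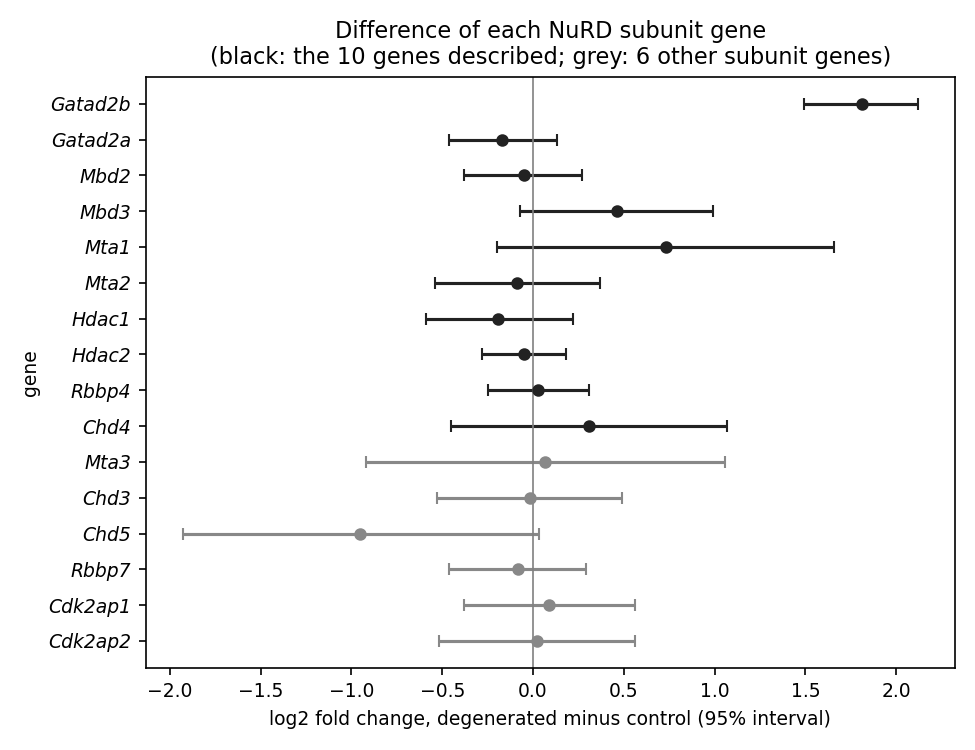
Log2 fold change (degenerated minus control) with its 95% interval for the 10 NuRD genes (black) and 6 other subunit genes of the complex (grey). The interval of Gatad2b, the gene that chose the set, runs from 1.49 to 2.12 and is a description, not a test. Those of the other 15 genes include 0.

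Ordered by TPM over the listed transcripts, the control levels were Mbd2 at 237, Hdac1 at 195, Rbbp4 at 192, Hdac2 at 139, Mta2 at 117, Chd4 at 89.9, Mbd3 at 68.4, Gatad2a at 55.6, Mta1 at 35.9 and Gatad2b at 9.94. The library ranges of neighbours in this order overlapped for Hdac1 and Rbbp4 and for each step from Hdac2 down to Mta1. Gatad2b stood below all of them, at 9.23 to 10.5 TPM against 25.1 to 53.2 for Mta1. In degenerated libraries Gatad2b, at 31.4 to 37.1 TPM (34.1 ± 2.83, SD, n = 3), was still the lowest of the 10, below Gatad2a at 49.8 to 57.3. The degenerated order was otherwise Mbd2, Rbbp4, Hdac1, Hdac2, Chd4, Mta2, Mbd3, Mta1 and Gatad2a, with overlapping neighbours from Hdac2 to Mbd3.

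Of the 62 annotated transcripts of the 10 genes, 40 were listed and 32 were tested. Only Gatad2b-205, of the gene that chose the set, was called higher, beside 1.14% of the 26065 transcripts tested, and 0 were called lower, beside 0.652%. Among the 30 tested transcripts of the other 9 genes, 3 had groups that did not overlap, against 16.4% of all transcripts tested. All 3 were minor forms that were higher in degenerated libraries, and none passed the test.

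On the CPM scale, on which overlap was judged, the coding fragment Chd4-207 had 4.58, 4.2 and 1.94 in control and 8.17, 7.07 and 4.97 in degenerated libraries (log2 fold change 0.91, SE 0.46, edgeR adjusted p = 0.712). The retained-intron form Chd4-206 had 0.751, 0.651 and 0.583 against 1.29, 1.18 and 1.42 CPM, from 9 to 19 counts a library (0.96, SE 0.35, edgeR adjusted p = 0.636). The retained-intron form Rbbp4-204 had 3.76, 1.74 and 3.3 against 4.5, 7.14 and 4.5 CPM (0.87, SE 0.44, edgeR adjusted p = 0.718). Their genes, each led by a much more abundant coding form, overlapped between groups.

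Some transcripts of Mta1, Mbd3 and Chd4 varied widely among libraries of one group. Mta1-201, Mta1-203 and Mta1-204 had 4, 6 and 13 counts in control replicate 1, but 193, 187 and 197 in control replicate 2 and 130, 114 and 124 in control replicate 3. In degenerated libraries they ran from 53 to 264 counts, each lowest in degenerated replicate 1. Mta1-205 had 19, 6 and 108 counts in control and 228, 105 and 72 in degenerated libraries, which overlapped also as CPM (log2 fold change 1.70, SE 1.06, edgeR adjusted p = 0.78). Mbd3-203 had 153, 487 and 85 counts in control and 140, 624 and 665 in degenerated libraries, while Mbd3-204 had 545, 437 and 658 against 669, 626 and 267. Chd4-201 ranged from 121 to 1458 counts in control and from 298 to 1776 in degenerated libraries, and Chd4-203 from 2367 to 3484 and from 2638 to 4015. Whether forms differed in level or reads were assigned to them differently was not tested.

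The 6 other subunits of the complex gave 0 calls, with 3 log2 fold changes above and 3 below 0 and a median of 0.0014. Chd5, the motor paralogue known from neurons, had 79.1, 41.7 and 27.1 CPM in control and 26.3, 27.8 and 22.6 CPM in degenerated libraries. Its log2 fold change of -0.95 (SE 0.40, 95% interval -1.93 to 0.034) did not pass the test (edgeR adjusted p = 0.536). It was -0.44 without control replicate 1, and -1.25 and called without control replicate 3. The SGN markers given above were lower in degenerated libraries, and their part in it was not tested. Chd3, the third motor, had 257 to 371 and 242 to 368 CPM (log2 fold change -0.017, SE 0.21), and the scaffold Mta3 had 46.5 to 71.7 and 35.5 to 99.6 CPM (0.068, SE 0.41). Rbbp7, the chaperone paralogue, had 217 to 225 and 167 to 245 CPM (-0.084, SE 0.15). The small subunits Cdk2ap1 (0.09, SE 0.19) and Cdk2ap2 (0.02, SE 0.22) also overlapped between groups.

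Around the complex, 9 lists of 107 chromatin genes were read, of which 93 genes were tested. In them 1 gene was called higher and 1 lower, together 2.15% of the 93, beside 2.01% called higher and 0.715% called lower of all genes tested, with a median log2 fold change of -0.024. The lists of NuRD partners and recruiters (11 tested, median -0.24), the Sin3 complex (11, -0.048), the CoREST complex (7, -0.10), other methyl-CpG proteins and DNA methylation (11, 0.081), the BAF remodelling complex (19, 0.0082) and Polycomb repressive complex 2 (8, -0.10) gave 0 calls. Of the other 8 tested histone deacetylases 1 was called lower, Hdac6 (median -0.22), and of 13 ISWI and other CHD remodellers 1 was called higher, Chd9 (median 0.15).

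Hdac6, a largely cytoplasmic deacetylase of tubulin that is not a NuRD subunit, had 50, 48.8 and 42.2 CPM in control and 9.78, 15.6 and 14.8 CPM in degenerated libraries (log2 fold change -1.81, SE 0.24, edgeR adjusted p = 0.138). That fall was mainly in the retained-intron transcript Hdac6-204, with 708, 684 and 632 counts against 32, 74 and 56. Of the coding transcripts, Hdac6-201 went the other way, with 2, 0 and 1 counts against 97, 129 and 112. Hdac6-205 did not, with 31, 0 and 21 counts against 1, 1 and 1, and Hdac6-203 had 14, 6 and 7 against 13, 18 and 18. With coding transcripts alone the gene's log2 fold change was 2.37 (edgeR adjusted p = 0.401). Both directions rest on 4 listed of 10 annotated transcripts.

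Chd9, a motor of another CHD subfamily, had 129, 89.8 and 87.6 CPM in control and 152, 177 and 160 CPM in degenerated libraries (log2 fold change 0.68, SE 0.18, edgeR adjusted p = 0.362). It kept its direction but lost the call in 9 of 14 alternatives, when any library except control replicate 1 was left out among them.

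The genes whose log2(CPM + 1) followed Gatad2b most closely over the 6 libraries, among 8423 genes with a mean of at least 10 CPM, were Zfp316 (Pearson r = 0.9956), Csnk2b (0.9952), Tmem72 (0.9935), A930004J17Rik (0.9914) and Smad4 (0.9896). These points are 2 groups of libraries, so r mostly measures an even difference between the groups. Csnk2b, the regulatory subunit of casein kinase 2, had 3.51, 6.16 and 3.76 CPM in control and 60.7, 56.6 and 60.8 CPM in degenerated libraries. That is a larger ratio than that of Gatad2b, and it rests on 5 listed of 10 annotated transcripts. Smad4, the shared mediator of TGF-beta and BMP signals, had 112, 114 and 115 against 145, 143 and 142 CPM, a ratio of 1.26. Zfp316, a zinc finger gene with 1 of 3 transcripts listed, had 3.51, 3.96 and 2.42 against 20.9, 23.8 and 30.9 CPM.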

How the data were processed

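RNA-seq of the cochlear modiolus was analysed in 3 control and 3 degenerated libraries, grouped by the labels. The study's methods name Hisat2 and StringTie, while the submitters' processing notes name Bowtie 0.12.2 and the builds mm8 and mm10. How reads were counted, and on which annotation, the sources used here do not state. The authors deposited whole-number counts per Ensembl transcript, without normalization, for 65535 transcripts. With its header line the table fills the row limit of an older spreadsheet format, and whether it was cut there is not known, so totals, CPM and TPM refer to the listed transcripts. Of these, 65272 matched GENCODE M21 (46% of 141767 annotated) and 263, with 0.125% of counts, were left out. Listed transcripts were added up per gene, so a gene is seen only through its listed transcripts.

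Genes and transcripts were tested with edgeR 4.0.16 (R 4.3.3, filterByExpr, TMM, quasi-likelihood F test), all 3 degenerated against all 3 control libraries without covariates. Calls used p below 0.01 before adjustment and a log2 fold change of over 0.2 in size, criteria that the study gives for another of its comparisons, beside Benjamini-Hochberg adjusted p over all features tested. A standard error was the log2 fold change over the square root of F. TPM over the listed transcripts were computed from counts per kilobase. Intervals cover the spread between libraries. Alternatives were DESeq2 1.42.0, limma-voom (limma 3.58.1), RLE and upper-quartile normalization, no filter, a mean count of at least 10, coding transcripts only, genes with every transcript listed, a replicate block and leaving out each library. The fit was tested on simulated data. Shared stretches and protein alignments were computed from GENCODE M21 transcripts with Biopython 1.88, and promoters came from RefSeq.

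The members and lists were chosen with earlier results of these data known. Genes named were all members, their transcripts with a mean count of at least 10, other subunits, called genes of the lists, called neighbours within 250 kb and the 5 genes most like Gatad2b. Dennd4b, Hdac6 transcripts and the shared-sequence genes were named after their values were seen.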

Additional observations from a re-analysis of the deposited data

How the results depend on the processing

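The Gatad2b log2 fold change was 1.73 to 1.92 over 14 alternatives, given as a description. The count of NuRD genes called was 1 to 2 when a library was left out, with 2 (Mta1 added) without control replicate 2, and 0 among genes with every transcript listed, where only Hdac1 could be tested. The log2 fold changes of some genes near 0 changed sign when a library was left out. They then ran from -0.14 to 0.083 for Mbd2, -0.24 to 0.066 for Mta2, -0.044 to 0.092 for Rbbp4, -0.20 to 0.14 for Chd3, -0.23 to 0.051 for Rbbp7, -0.066 to 0.24 for Cdk2ap1, -0.15 to 0.16 for Cdk2ap2 and -0.47 to 0.35 for Mta3. Without a change of sign, Mta1 ran from 0.44 to 1.20, Mbd3 from 0.30 to 0.62, Chd4 from 0.049 to 0.56, Hdac1 from -0.31 to -0.09, Gatad2a from -0.22 to -0.078, Hdac2 from -0.10 to -0.027 and Chd5 from -1.25 to -0.44, with calls only of Mta1 without control replicate 2 and of Chd5 without control replicate 3. Mbd2 and Mta2 turned without control replicate 2, and Rbbp4 without the first replicate of either group (-0.04 for control). Mta3 was -0.027 with limma-voom, -0.049 with the replicate block and -0.57 with coding transcripts only, where Hdac6 was 2.37. The cause was not tested.

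The Gatad2b-205 share differed by 8.02 percentage points (6.06 to 11.5 without 1 library) and by 14.9 on counts per kilobase. The lists gave 2 calls, with 5 under DESeq2, 0 among genes with every transcript listed and 1 to 4 when a library was left out. Over all genes, 284 were called higher and 101 lower. DESeq2 called 479 and 306, the fit without degenerated replicate 2 called 144 and 121, and the replicate block 160 and 58. Of transcripts, 296 were called higher and 170 lower, against 657 and 555 with DESeq2 and 138 and 83 with the block. Same-numbered libraries did not deviate together (r = 0.16, -0.09 and 0.07), so the numbers were not taken to pair them. With the replicate block the Gatad2b log2 fold change was 1.81, 1 NuRD gene (Gatad2b) was called and the median log2 fold change of the set was -0.0044. With 3 libraries a group, a small difference in a member may have been missed.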
